A study of Homo sapiens with 118 samples.

Results

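Gene expression was compared between the highest and the lowest concentration of apicidin in HepaRG cells. HepaRG is an established human line from a liver tumour, used here in its differentiated state and labelled as liver progenitor cells. Of the 118 TempO-Seq libraries of the series, 6 made up the comparison, namely the 3 of group C5 (0.86 µM) and the 3 of group C1 (0.041722 µM), chosen by concentration label and by no measured value. All 6 came from wells treated for 72 hours with apicidin that was renewed daily, and all lay on plate H. Replicates 1, 2 and 3 were the HepaRG batches B326, B330 and B303, so each group held 1 well of each batch. The libraries of the concentrations in between (0.125167, 0.3755 and 0.5 µM) entered the fit and are described below as levels, so that the fit held 15 libraries. Per the labels solvent controls received 0.5% DMSO, but no solvent control was among the 118 libraries. C1 cells carried apicidin as well, so a response that was complete at the lowest concentration is not seen. All wells were of 1 cell line, and cell number and viability were not analysed here.

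Apicidin is a cyclic tetrapeptide of fungal origin that blocks histone deacetylases. These enzymes remove acetyl groups from the lysines of histones and of other proteins, and class I members do so as the catalytic subunits of corepressor complexes such as NuRD, Sin3 and NCoR. Their inhibition raises histone acetylation, lets silent genes be transcribed and stops the division of many cell types. Differentiated HepaRG cultures hold hepatocyte-like cells, which make plasma proteins, bile acids and drug-metabolising enzymes, beside cells that resemble the biliary lineage. The regulators that sustain hepatocyte genes include HNF4A, the FOXA factors and several nuclear receptors.

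Between the lowest and the highest concentration, products of hepatocytes and of dividing cells fell, and genes that were near 0 at C1 were among those that rose. TempO-Seq ligates pairs of detector oligos on their target transcript, then amplifies and counts them, and each pair is called a feature. Levels are CPM (counts scaled to the library size), comparable between libraries for 1 feature but not between features. A feature was called when edgeR's quasi-likelihood F test gave a Benjamini-Hochberg adjusted p under 0.05 with a fold change of at least 1.5. Of 12706 features tested, 3662 were called (28.8%), of which 1754 rose (13.8%) and 1908 fell (15%). In 3637 of these (99.3%) the change had the same sign in 3 of 3 batches. These signs come from the same libraries as the calls, so they are no separate support. The median log2 change was 1.12 among rising and -1.47 among falling features, against 0.01 over all features tested. A change of 8-fold or more was found in 143 rising and 273 falling features. The falling features held 33.1% of the CPM at C1 (SD 1.14, n = 3) and 12.2% at C5 (SD 0.41), whereas the share of the rising features went from 13.4% (SD 0.264) to 29.1% (SD 0.891). Without batch B303 at all concentrations there were 2281 calls (1035 rising and 1246 falling). Total counts of the 6 libraries ranged from 3960043 to 5250260. Rank correlations (Spearman) over features were 0.9715 to 0.9762 within C1, 0.9554 to 0.9656 within C5 and 0.8761 to 0.8946 between the groups.

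**Figure D1:**
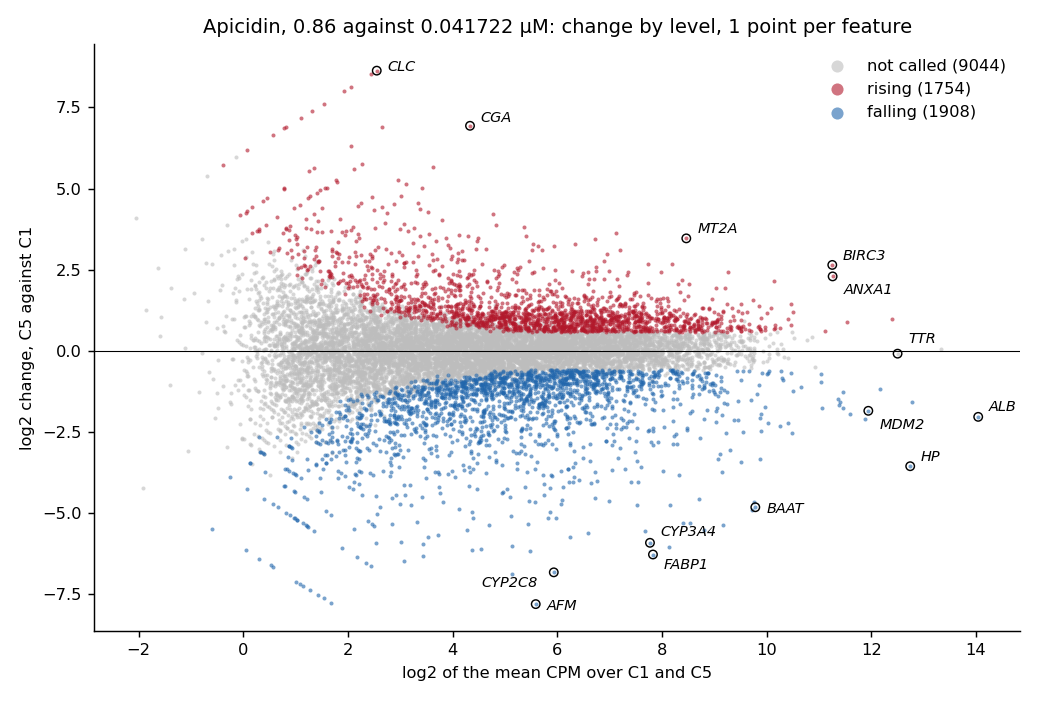
Log2 change from C1 to C5 (vertical axis) against the log2 of the mean CPM over both groups (horizontal axis), 1 point per feature tested, with 1754 rising features in red, 1908 falling in blue and the others in grey. Among the features with the most reads, ALB, HP and MDM2 fell while TTR lay near 0, and the diagonal rows of points on the left are features with few or no reads in 1 of the groups.

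Markers of cell types were set against the label first. All 10 hepatocyte markers were tested, and their summed level was 41700 to 55200 CPM in the C1 libraries and 15800 to 18800 CPM in the C5 libraries. Of their 11 features, 10 fell and the remaining one, TTR, did not pass the test. The 9 cholangiocyte markers had a median sum of 265 CPM at C1 and 322 CPM at C5, with 2 of them at the floor throughout, that is, never above 3 counts. Of their 6 features tested SOX9 and SPP1 rose and ANXA4 fell, a call that was lost without B330 or B303. Stellate cell or fibroblast markers summed to 174 to 215 CPM at C1 and 98.5 to 115 CPM at C5, with 4 of 8 features falling (2 without B326 or B303) and COL1A1 rising, which it did not without B330 or B303. Endothelial markers summed to at most 16.7 CPM and macrophage markers to at most 71.1 CPM in any of the 6 libraries, with CDH5 and MARCO without a count. In these bulk lysates, fewer cells of a type and less RNA per cell cannot be told apart.

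The genes with the largest rises, among called features that reached a mean of 10 CPM, were CLC, S100P, CGA, SLC28A3, DNAI1, HIF3A, CALB1, CCK, PRR20G and GPR50. These genes, like others near 0 at C1, passed the filter on low counts through higher concentrations and so had to differ. Their p-values and separate groups are therefore descriptions. CGA encodes the alpha subunit shared by the glycoprotein hormones. Its level was 0, 0.889 and 0 CPM at C1 and 49.9, 57 and 13.2 CPM at C5 in batches B326, B330 and B303, so the groups did not overlap and B303 was the lowest at C5. The log2 change was 6.93 (SE 0.73, edgeR adjusted p = 4.36e-07). CLC, the galectin of Charcot-Leyden crystals, had no count at C1 and 8.98, 14.2 and 12 CPM at C5, at least 17.3-fold higher when C1 is set at 3 counts per library. The calcium-binding protein S100P was likewise without a count at C1 and was at least 16.1-fold higher (6.23, 7.91 and 18.6 CPM). By the same floor the nucleoside transporter SLC28A3 was at least 18.4-fold, the ciliary dynein chain DNAI1 at least 35.8-fold, the hypoxia-inducible factor HIF3A at least 22.5-fold and the calcium-binding protein CALB1 at least 24.7-fold higher. The hormone gene CCK (cholecystokinin) went from 0.649 to 20.8 CPM (SD 0.64 and 3.97), and the orphan receptor gene GPR50 from 0, 1.11 and 0 CPM to 9.23, 15.6 and 7.29 CPM. PRR20G, which has near-identical copies in the genome, had 4.24, 3.72 and 38.6 CPM at C5, so most of its rise lay in B303, and it was not called without that batch (edgeR adjusted p = 0.0918).

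Among falling features the same rule named AFM, CYP2C8, ABCG5, CYP4A11, TNFRSF11B, F7, FABP1, ADH4, GBA3 and THRSP. Those near 0 at C5, like others of this kind named below, passed the filter on low counts through lower concentrations and so had to differ. Their p-values and separate groups are descriptions too. AFM encodes afamin, a vitamin E-binding plasma protein. Its level was 98.8, 102 and 86.6 CPM at C1 and 0.499, 0 and 0.705 CPM at C5, at least 134-fold lower. FABP1, the fatty acid-binding protein of hepatocytes, measured 538, 446 and 363 CPM at C1 and 8.23, 5.35 and 3.76 CPM at C5, a 77.7-fold difference (log2 change -6.28, SE 0.29, edgeR adjusted p = 1.14e-11). In both genes every C5 library lay far under every C1 library. The cytosolic beta-glucosidase GBA3 fell from 54.9, 34 and 34.1 CPM to 0.249, 0 and 1.41 CPM, the fatty acid hydroxylase CYP4A11 was at least 14.1-fold lower and osteoprotegerin (TNFRSF11B), a decoy receptor, at least 23.3-fold lower. SERPINA10, the protein Z-dependent protease inhibitor, was named from the plasma protein list and went from 201, 185 and 179 CPM to 4.49, 3.02 and 4 CPM.

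Promoters of 4 of these genes, 1 that rose and 3 that fell, are shown to place the changes on the sequence next to the start. The sequences are the 250 bases before the RefSeq start on GRCh38.p14, read 5′ to 3′ on the strand of the gene. Capitals mark exact matches, on either strand, to the TATA box letters TATAAA, the cyclic AMP response element TGACGTCA, the CCAAT box, the AT-rich hexamer GTTAAT and the HNF4 motif CAAAGT, which do not overlap one another here. The windows are chr6:87095107-87095356 on the minus strand (CGA), chr4:73481495-73481744 on the plus strand (AFM), chr2:88128063-88128312 on the minus strand (FABP1) and chr14:94293269-94293518 on the minus strand (SERPINA10).
CGA: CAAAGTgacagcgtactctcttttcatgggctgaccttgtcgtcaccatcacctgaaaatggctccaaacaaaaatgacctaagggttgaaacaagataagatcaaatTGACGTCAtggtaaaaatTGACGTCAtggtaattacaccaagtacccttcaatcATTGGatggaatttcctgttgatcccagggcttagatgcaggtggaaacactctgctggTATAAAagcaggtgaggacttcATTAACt
AFM: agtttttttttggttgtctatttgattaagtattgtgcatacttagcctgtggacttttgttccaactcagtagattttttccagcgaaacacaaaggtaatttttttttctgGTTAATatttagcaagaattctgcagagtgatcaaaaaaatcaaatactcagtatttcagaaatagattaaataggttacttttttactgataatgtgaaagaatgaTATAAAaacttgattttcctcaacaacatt
FABP1: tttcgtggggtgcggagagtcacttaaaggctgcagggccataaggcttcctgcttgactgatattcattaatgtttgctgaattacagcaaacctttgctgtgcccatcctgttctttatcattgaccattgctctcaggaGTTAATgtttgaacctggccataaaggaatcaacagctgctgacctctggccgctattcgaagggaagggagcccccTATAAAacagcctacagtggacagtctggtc
SERPINA10: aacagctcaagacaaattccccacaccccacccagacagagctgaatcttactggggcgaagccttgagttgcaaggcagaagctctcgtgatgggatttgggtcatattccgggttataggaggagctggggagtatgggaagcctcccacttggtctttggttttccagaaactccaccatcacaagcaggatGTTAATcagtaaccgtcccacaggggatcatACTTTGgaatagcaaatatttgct
In the rising CGA the element TGACGTCA began at 142 and at 124 bases before the start, and TATAAA at 29. The falling AFM and FABP1 had GTTAAT at 137 and 108 bases and TATAAA at 30 and 31 bases before the start, and SERPINA10 had GTTAAT at 55 and the HNF4 motif on the opposite strand at 24. CGA also held both of these motifs, the hexamer on the opposite strand at 7 bases and the HNF4 motif at 250 bases before its start. Over promoters of 250 bases before to 50 after the start, GTTAAT occurred in 6.89% of all 27305 promoters, in 4.13% of 9397 genes tested, in 7.32% of 1435 falling and in 3.49% of 1347 rising genes. The HNF4 motif was found in 12.0%, 8.34%, 12.6% and 6.46%, and TATAAA in 12.0%, 6.39%, 9.55% and 7.2% of the same sets. The element TGACGTCA was found in 1.98%, 3.26%, 2.44% and 4.38%, and the CCAAT box in 35.7%, 37.6%, 35.4% and 40.5%. Of the 104 genes that rose 8-fold or more, as CGA did, 1.92% held TGACGTCA. The median GC share was 58.3%, 64.7%, 63.0% and 64.7% in the same 4 sets, and the part of base composition in these shares was not tested. A match describes letters in a window and not a bound site, and no test was made. A RefSeq promoter was matched for 82.8% of the symbols tested, 80.8% of the falling and 81.2% of the rising ones.

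Secreted products of hepatocytes fell in nearly every feature tested. Of 42 genes in the plasma protein list 38 were tested with 40 features, and 36 features fell while 0 rose. The median log2 change was -2.26 against 0.01 over all features tested. ALB, which encodes serum albumin, measured 28494, 31772 and 21205 CPM at C1 and 7226, 6062 and 6570 CPM at C5. The groups did not overlap, and the difference was 4.1-fold (log2 change -2.04, SE 0.26, edgeR adjusted p = 4.35e-06). HP, the haemoglobin-binding haptoglobin, named after its values were seen, fell further, from 13915, 12497 and 11530 CPM to 1338, 1155 and 729 CPM (11.8-fold, edgeR adjusted p = 2.19e-08). Ceruloplasmin (CP), the copper carrier of plasma, fell by 4.11 on the log2 scale. The tocopherol transfer protein TTPA, an intracellular member of the list, fell by 4.71. The 4 features that did not pass were those of TTR, AGT, APOM and SERPINA6. TTR, the thyroxine carrier transthyretin, showed 7071, 5867 and 5021 CPM at C1 and 5795, 6985 and 4103 CPM at C5, with overlapping groups (log2 change -0.09, SE 0.23, edgeR adjusted p = 0.809).

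**Figure D2:**
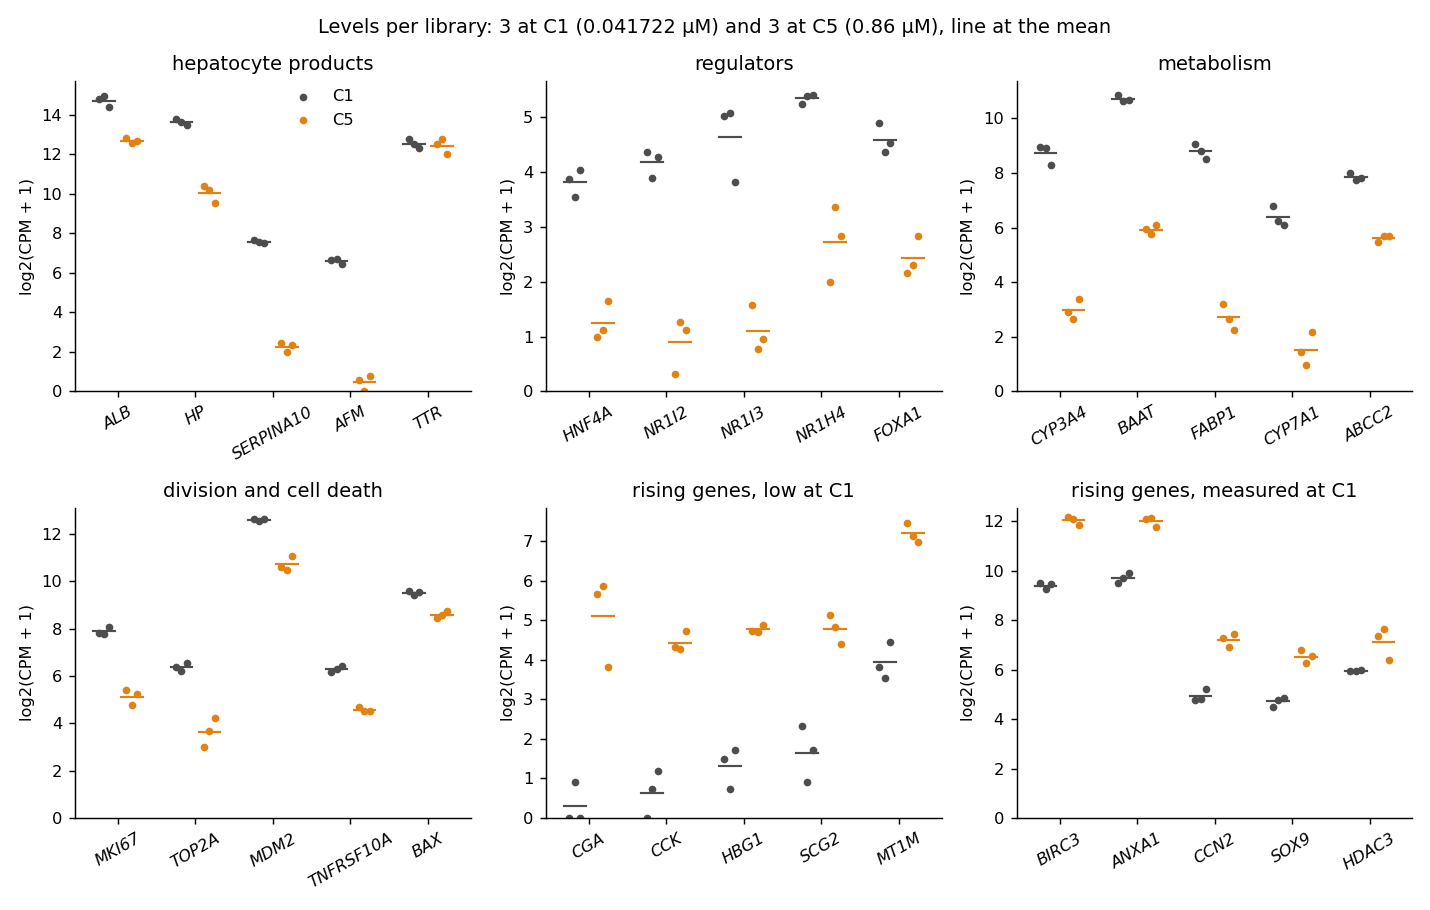
Levels of 30 genes as log2(CPM + 1) in each of the 3 C1 libraries (grey) and 3 C5 libraries (orange), with a line at the mean of each group and 5 genes per panel. The groups were separate for each gene shown except TTR. The other genes were picked from those called, so their separation is a description and no separate support.

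Clotting and complement genes moved mostly in the same direction. Of 26 features of coagulation and fibrinolysis tested, 20 fell and 2 rose (median log2 change -1.97). Heparin cofactor II (SERPIND1) fell from 655, 580 and 417 CPM to 26.4, 17.7 and 17.2 CPM, which was 27-fold (edgeR adjusted p = 4.74e-10). Kininogen (KNG1) fell by 4.71 on the log2 scale (SE 0.34), the factor XIII subunit F13B by 4.26 (SE 0.45), and factor VII (F7) was at least 29.9-fold lower. FGA, the fibrinogen alpha chain, named after its values were seen, was 10516, 11355 and 9708 CPM at C1 and 3725, 3498 and 3457 CPM at C5. Tissue factor F3, made by many cell types and also named after its values were seen, was a rising member (24.1 to 62.9 CPM). Among 31 complement features 23 fell and 5 rose (median log2 change -2.20), and the rising count was 3 without B326 and 1 without B303. The factor H-related genes CFHR4 and CFHR3 (log2 change -4.44 and -4.27) and the terminal components C8A and C8B (-3.75 and -3.72) fell most. The factor H-related genes are similar in sequence, so their features may share reads.

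Regulators of hepatocyte genes were lower as well, from low levels. Of 23 features for hepatocyte transcription factors 14 fell and 1 rose (median log2 change -1.29), and 9 fell without B330 and 6 without B303. HNF4A measured 13.7, 10.7 and 15.4 CPM at C1 and 0.998, 1.16 and 2.12 CPM at C5 (9.1-fold, log2 change -3.19, SE 0.62, edgeR adjusted p = 0.000535). FOXA1 fell from 28.8, 19.6 and 22 CPM to 3.49, 3.96 and 6.11 CPM. Neither gene had overlapping groups, but HNF4A was low at C5 and passed the filter through lower concentrations. ONECUT1 fell in the feature called (log2 change -3.13, SE 0.91, edgeR adjusted p = 0.0118, or 0.0767 without B330). ONECUT2, the single rising member and named after its values were seen, went from 7.95, 9.12 and 5.89 CPM to 29.4, 34.2 and 32.5 CPM (4.16-fold, edgeR adjusted p = 8.15e-05).

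Nuclear receptors and related ligand sensors split by member. Of 28 features 9 fell and 5 rose (median log2 change -0.24), beside 15% falling and 13.8% rising over all features. The number falling was 5 without B326, and the number rising was 3 without B330 or B303. Both xenobiotic sensors fell. NR1I2, the pregnane X receptor, went from 19.7, 13.8 and 18.4 CPM to 0.249, 1.4 and 1.18 CPM (log2 change -4.14, SE 0.56, edgeR adjusted p = 9.70e-06). NR1I3, the constitutive androstane receptor, went from 31.4, 32.9 and 13.1 CPM to 2, 0.698 and 0.941 CPM (log2 change -4.40, SE 0.56, edgeR adjusted p = 5.58e-06). The bile acid receptor NR1H4 showed a log2 change of -2.68 with an SE of 0.44 (edgeR adjusted p = 9.61e-05). The dioxin-binding factor AHR rose from 48.7, 39.4 and 59.4 CPM to 144, 121 and 183 CPM, or 3.04-fold (edgeR adjusted p = 2.07e-06). RARA, the retinoic acid receptor alpha, named after its values were seen, rose in both of its features (2.91-fold and 4.91-fold).

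**Figure D3:**
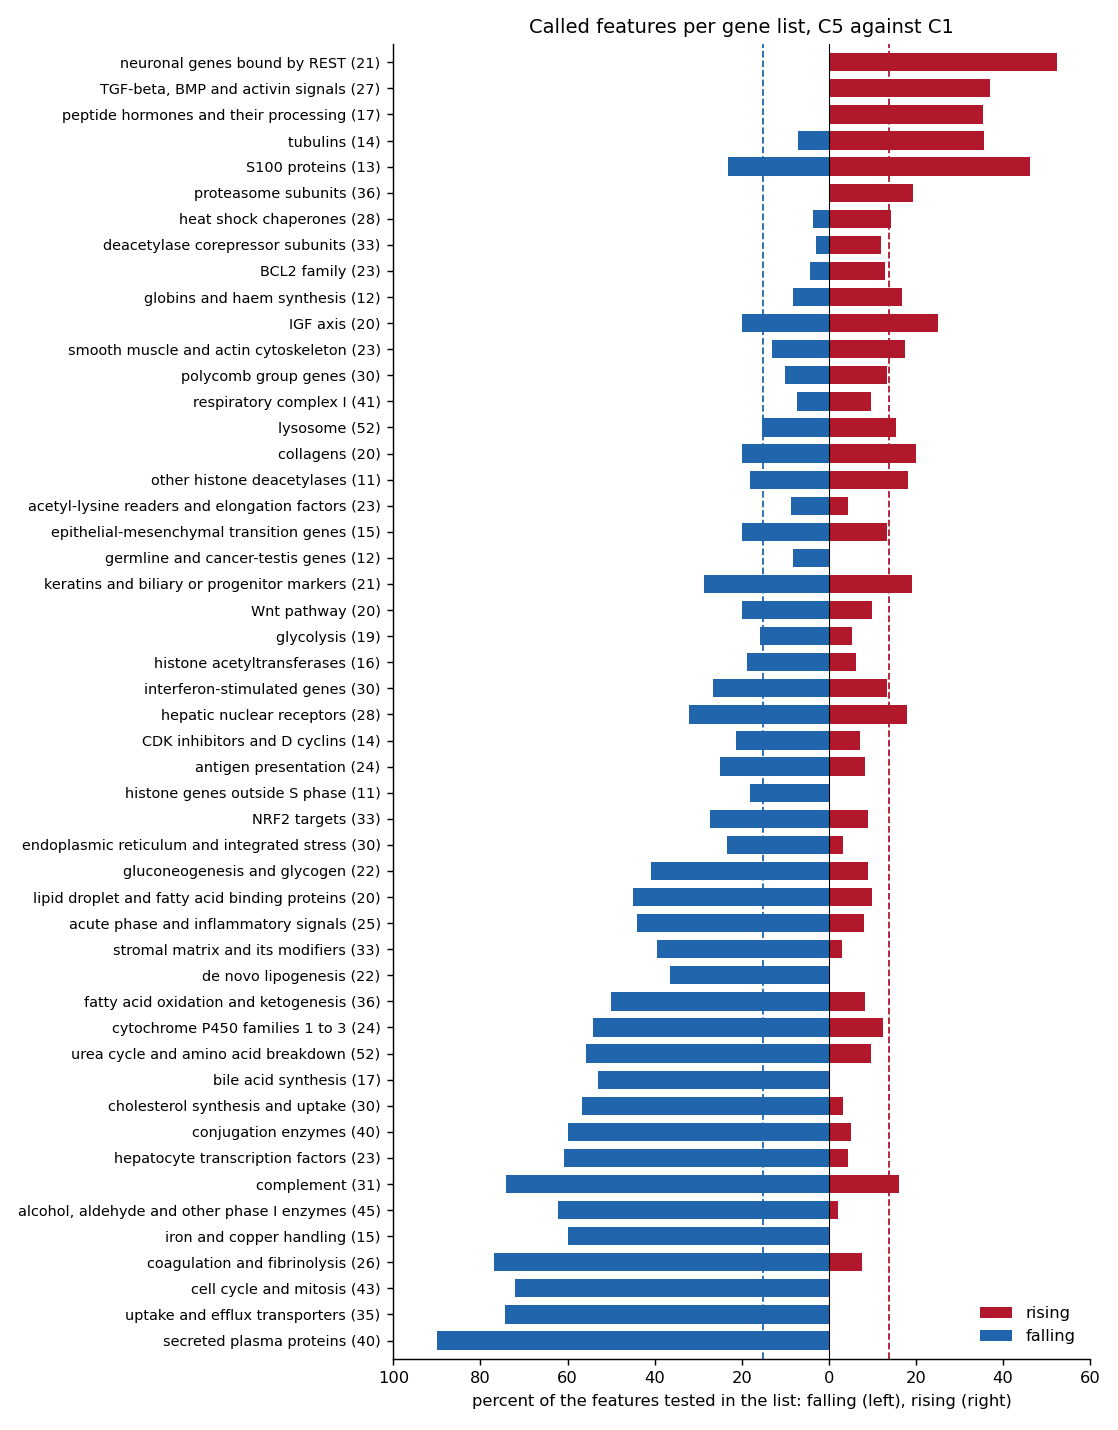
Percent of the features tested in each gene list that fell (blue, to the left) or rose (red, to the right) from C1 to C5, for lists described here, other than marker lists, with at least 10 features tested, whose number stands in brackets. Dashed lines mark the shares over all features, 15% falling and 13.8% rising; plasma proteins, transporters and cell cycle genes reach far to the left of the background line and TGF-β signals to the right of it. Lists of genes low at C1, such as the neuronal one, hold features that passed the filter through the higher concentrations, so their shares are not read against the lines.

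Enzymes of drug metabolism fell in most of their features. Of 24 features of cytochrome P450 families 1 to 3, 13 fell and 3 rose. CYP3A4, the most widely acting drug oxidase of human liver, fell from 493, 486 and 311 CPM to 6.48, 5.35 and 9.41 CPM (60.5-fold, log2 change -5.92, SE 0.28, edgeR adjusted p = 1.14e-11). CYP2C8 went from 144, 118 and 102 CPM to 1.75, 0.465 and 0.941 CPM. CYP2C19, at least 10.2-fold lower, is close to it in sequence, so their features may share reads. The rising P450 features, named after their values were seen, were those of CYP1A1 (17.3 to 57.2 CPM), the vitamin D 25-hydroxylase CYP2R1 (151 to 331 CPM) and CYP2U1 (6.35 to 16.9 CPM), and the call of CYP2U1 was lost without B326 or B303. In the P450 family 4, 5 of 9 features fell (3 without B330) and 0 rose. Conjugation enzymes fell in 24 of 40 features and rose in 2 (4 without B326 and 1 without B330 or B303). The glycine conjugase GLYAT (log2 change -5.16), the glucuronosyltransferases UGT2B4 (-4.88) and UGT2A3 (-4.66) and the steroid sulfotransferase SULT2A1 (-4.75) fell most. Alcohol, aldehyde and other phase I enzymes fell in 28 of 45 features. Among them the hydroxyacid oxidase HAO2 fell from 554 to 8.41 CPM (SD 104 and 1.45) and the alcohol dehydrogenase ADH4 from 112, 82 and 70.2 CPM to 0.998, 1.4 and 1.18 CPM. The single rising member was the aldo-keto reductase AKR1C2 (766 to 2078 CPM, named after its values were seen).

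Genes that make and move bile acids fell among those called. Bile acid synthesis had 9 falling and 0 rising features of 17. BAAT, which joins bile acids to glycine or taurine, measured 1879, 1616 and 1618 CPM at C1 and 60.1, 53.3 and 67.3 CPM at C5, with a small spread in both groups (28.3-fold, log2 change -4.82, SE 0.19, edgeR adjusted p = 1.49e-12). CYP7A1, the rate-limiting enzyme of bile acid synthesis, fell from 110, 75.6 and 68.1 CPM to 1.75, 0.931 and 3.53 CPM. CYP8B1, the sterol 12-alpha-hydroxylase, had no count at C5 and was at least 8.9-fold lower. Uptake and efflux transporters fell in 26 of 35 features and rose in 0 (median log2 change -2.26). The sterol exporter subunit ABCG5 was at least 15-fold lower and the bile acid importer SLC10A1 at least 7.49-fold lower, though the latter was not tested in a fit of the 6 libraries alone. The organic anion carriers SLC22A7 and SLC22A9 fell by 5.54 and 5.16 on the log2 scale, and the canalicular pump ABCC2 from 259, 212 and 225 CPM to 43.4, 50.7 and 50.8 CPM.

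Lipid metabolism had more falling than rising features in each of its branches. In cholesterol synthesis and uptake 17 of 30 features fell and 1 rose (median log2 change -0.69). The mevalonate decarboxylase MVD fell by 2.01 on the log2 scale. The sterol-C4 oxidase MSMO1, named after its values were seen, fell from 4313, 4138 and 3788 CPM to 1270, 1344 and 1479 CPM (2.99-fold, edgeR adjusted p = 1.44e-07). In fatty acid synthesis 8 of 22 features fell and 0 rose. The lipogenic regulator THRSP was 59.4, 45.6 and 32.5 CPM at C1 and 0.499, 1.4 and 0 CPM at C5, and fatty acid synthase FASN fell 3.42-fold (854, 786 and 837 CPM to 216, 204 and 305 CPM). Lipid droplet and fatty acid-binding genes fell in 9 of 20 features and rose in 2. The droplet protein CIDEB was at least 22.3-fold lower and the lipase inhibitor G0S2 fell by 4.05 on the log2 scale. FABP4, the fatty acid-binding protein of adipocytes, moved against FABP1, with 1.79, 3.78 and 5.38 CPM at C1 and 69.6, 57.7 and 32.7 CPM at C5 (14.8-fold higher, edgeR adjusted p = 8.58e-08, named after its values were seen). In fatty acid oxidation and ketogenesis 18 of 36 features fell and 3 rose. The medium-chain acyl-CoA synthetases ACSM2A (log2 change -5.37) and ACSM2B (-5.74), near-identical in sequence, and ACSM5 (-3.81) fell too.

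Genes of sugar and amino acid metabolism had more falling than rising features. Gluconeogenesis and glycogen genes fell in 9 of 22 features and rose in 2 (1 without any 1 batch). Glucose-6-phosphatase (G6PC) went from 164, 99.4 and 71.2 CPM to 15.5, 4.42 and 3.29 CPM (14.5-fold, edgeR adjusted p = 4.70e-05), and phosphoenolpyruvate carboxykinase (PCK1), with no count at C5, was at least 5.62-fold lower, though it was not tested in a fit of the 6 libraries alone. Glycolysis had 3 falling features of 19 (1 without B303) and 1 rising. Its falling share of 15.8% was near the 15% over all features, of which 13.8% rose. Pyruvate kinase PKM, the form of dividing and non-hepatic cells, rose from 834 to 1457 CPM (SD 76 and 107). For the urea cycle and amino acid breakdown 29 of 52 features fell (19 without B303) and 5 rose. The glyoxylate-detoxifying AGXT measured 787, 669 and 514 CPM at C1 and 19.5, 14.7 and 15.3 CPM at C5 (39.9-fold, edgeR adjusted p = 4.55e-10). AGXT2 fell by 6.03 on the log2 scale, and the tryptophan-pathway enzyme ACMSD was at least 19.6-fold lower. ARG2, the mitochondrial arginase found outside the urea cycle, was among the rising members (8.74 to 52.5 CPM, named after its values were seen).

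Genes of iron and copper handling and of the acute phase response fell in part. Of 15 features of iron and copper handling, 9 fell and 0 rose (5 falling without B330), among them transferrin TF (6110 to 1424 CPM (SD 1000 and 264)). Acute phase and inflammatory genes fell in 11 of 25 features and rose in 2. The lipopolysaccharide-binding protein LBP fell from 1338 to 124 CPM (SD 58.9 and 30.6), the C-reactive protein gene CRP by 3.29 on the log2 scale and the serum amyloid gene SAA4 by 3.88. Both rising members, named after their values were seen, encode secreted proteins. The chemokine CCL20 went from 12.3, 6.23 and 17.2 CPM to 108, 151 and 72.9 CPM (9.35-fold, edgeR adjusted p = 1.51e-06), and lipocalin LCN2 from 32.6, 34.7 and 24.1 CPM to 206, 193 and 151 CPM (6-fold).

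Genes of cell division were measured at C1 and fell at C5. Of 43 features of cell cycle and mitosis 31 fell and 0 rose, with a median log2 change of -1.69. The proliferation marker MKI67, named after its values were seen, measured 224, 217 and 268 CPM at C1 and 40.9, 26.3 and 36.4 CPM at C5 (6.83-fold, log2 change -2.77, SE 0.21, edgeR adjusted p = 4.45e-09). The spindle checkpoint kinase BUB1B fell from 12.5, 8.89 and 14.3 CPM to 0, 0 and 1.18 CPM. The kinetochore protein CENPF fell by 3.66 and the phosphatase CDC25C by 3.80 on the log2 scale. In the list of CDK inhibitors and D cyclins 3 of 14 features fell (2 without B326 or B330, 1 without B303) and 1 rose (median log2 change -0.06). Over all features 15% fell and 13.8% rose. The rising one was the kinase CDK6 (186 to 377 CPM (SD 6.74 and 41)), itself neither a CDK inhibitor nor a D cyclin. CDKN1A, the inhibitor p21 that deacetylase inhibitors raise in many cells, had too few counts to be tested.

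MDM2, a ubiquitin ligase, fell in each of its 3 features tested, by 1.85, 1.74 and 2.15 on the log2 scale. In the feature with the most reads its level was 6276, 5986 and 6247 CPM at C1 and 1570, 1430 and 2133 CPM at C5 (3.61-fold, edgeR adjusted p = 5.22e-07). The pro-apoptotic BAX fell 1.9-fold (756, 690 and 746 CPM to 348, 375 and 427 CPM) and the death receptor TNFRSF10A by 1.77 on the log2 scale. In the BCL2 family 3 features rose and 1 fell of 23, beside 13.8% rising and 15% falling over all features, the rising ones being those of the pro-apoptotic BCL2L11 (42.9 to 97.7 CPM in the one with more reads, while the call of the other was lost when any batch was left out) and BMF (19.3 to 44.2 CPM).

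Metallothioneins, small cysteine-rich proteins that bind zinc and copper, rose in each feature tested. Of 11 genes on the panel 5 passed the filter on low counts, and all 5 features rose. MT2A measured 52.3, 62 and 62 CPM at C1 and 686, 828 and 432 CPM at C5 (11-fold, log2 change 3.46, SE 0.24, edgeR adjusted p = 1.34e-09). MT1M went from 13.1, 10.7 and 21 CPM to 176, 139 and 125 CPM, MT1X rose by 3.54 and MT1A by 4.54 on the log2 scale. MT1E rose least, from 45.5 to 161 CPM (SD 5.95 and 17.9). The MT1 genes are similar in sequence and may share reads, and a gene that passes the filter through its C5 level alone had to differ.

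Genes of neurons and of endocrine cells were low at C1, and a part of them rose. Neuronal genes bound by the repressor REST, which recruits deacetylases, comprised 64 genes, of which 20 passed the filter with 21 features. A gene that passes the filter through its level at the higher concentrations had to differ, so the counts of the neuronal and hormone lists are descriptions. Of these neuronal features 11 rose (7 without B303) and 0 fell. Secretogranin SCG2 went from 3.97, 0.889 and 2.3 CPM to 33.9, 27.5 and 19.99 CPM (11.1-fold, edgeR adjusted p = 9.02e-06). The vesicle protein SYT11 was at least 12.2-fold higher (0.199, 0 and 0 CPM to 9.73, 3.49 and 11.5 CPM). NCAM1, a neural adhesion molecule named after its values were seen, rose from 33.3 to 182 CPM (SD 2.62 and 35.5) (log2 change 2.44, SE 0.18, edgeR adjusted p = 4.34e-09). Peptide hormones and their processing genes rose in 6 of 17 features and fell in 0, with 16 of 51 genes passing the filter. Besides CGA and CCK, the tachykinin gene TAC1 had no count at C1 and 6.73, 6.75 and 9.41 CPM at C5, at least 11.3-fold higher. Endothelin EDN1, named after its values were seen, rose from 20.7 to 68.9 CPM (SD 2.26 and 8.11). The neurotensin gene NTS was called with 2.52 CPM at C5 and lost its call without B326 (edgeR adjusted p = 0.246), and without B303 it was not tested.

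A fetal globin gene rose from a low level, and S100 genes moved in both directions. HBG1, a fetal gamma-globin gene that deacetylase inhibitors are known to induce in erythroid cells, measured 1.79, 0.667 and 2.3 CPM at C1 and 25.4, 24.9 and 28.5 CPM at C5 (16.4-fold, edgeR adjusted p = 7.38e-07). Like other genes low at C1, HBG1 passed the filter on low counts through higher concentrations. Its p-value and the counts of the globin and HOX lists are therefore descriptions. Reads of HBG1 and HBG2 may not be separable. Over globins and haem synthesis 2 of 12 features rose, HBG1 among them, beside 13.8% of all features rising and 15% falling. There 1 feature fell, that of ferrochelatase FECH, a call lost when any batch was left out. Of 39 HOX genes 3 passed the filter, and HOXA2 rose (4.67 to 13.1 CPM), a call lost without B326 or B303. Of 13 features of S100 proteins tested (19 genes in the list) 6 rose and 3 fell. S100A8 rose 5.33-fold (163, 227 and 190 CPM to 1149, 1280 and 660 CPM) and its partner S100A9 from 80.5 to 344 CPM, both named after their values were seen. S100A2 fell from 183, 190 and 195 CPM to 12.2, 8.14 and 13.4 CPM (16.8-fold, edgeR adjusted p = 4.80e-09).

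Genes of TGF-β, BMP and activin signalling rose in 10 of 27 features and fell in 0, with 6 rising without B303. The matricellular proteins CCN2 and CCN1, known targets of TGF-β and of the YAP and TEAD factors, rose most. CCN2 went from 26.2, 27.3 and 36.6 CPM to 152, 121 and 170 CPM (4.92-fold, edgeR adjusted p = 1.10e-07) and CCN1 from 5.96, 12.7 and 9.22 CPM to 43.4, 44 and 35.5 CPM. The ligand TGFB2 rose by 1.54 and the co-receptor TGFBR3 by 1.32 on the log2 scale. ANKRD1, another YAP target, and TEAD1 were named after their values were seen. ANKRD1 measured 408, 429 and 399 CPM at C1 and 1546, 2198 and 1781 CPM at C5 (4.47-fold, edgeR adjusted p = 5.84e-09), and TEAD1 rose from 871, 841 and 933 CPM to 2087, 1856 and 2126 CPM.

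Rising features with many reads were picked out after their values were seen. BIRC3, an inhibitor of apoptosis induced by NF-κB, measured 716, 606 and 698 CPM at C1 and 4565, 4384 and 3697 CPM at C5 (6.26-fold, log2 change 2.65, SE 0.13, edgeR adjusted p = 2.13e-11). PEG10, an imprinted gene derived from a retrotransposon, rose from 3644 to 7147 CPM (SD 418 and 1018). ANXA1, a phospholipid-binding annexin, rose from 715, 838 and 946 CPM to 4331, 4446 and 3460 CPM (4.9-fold, edgeR adjusted p = 2.08e-10). In none of these did a C1 library reach the lowest C5 library. The insulin receptor substrate IRS2, named from the list of the IGF axis, rose 5.4-fold (50.9, 57.4 and 44.3 CPM to 337, 222 and 267 CPM).

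Epithelial and stromal genes had calls in both directions, set beside 13.8% of all features rising and 15% falling. SOX9, a factor of biliary and progenitor cells, rose from 21.7, 26.7 and 28.2 CPM to 108, 76.1 and 91.7 CPM (3.61-fold, edgeR adjusted p = 3.35e-06), and osteopontin SPP1 from 8.94, 11.3 and 5.89 CPM to 50.4, 54.4 and 59 CPM. The biliary keratin KRT19 went from 37.1 to 42 CPM and did not pass the test (edgeR adjusted p = 0.54). Over the whole list of keratins and biliary or progenitor markers 4 of 21 features rose and 6 fell (3 without B330 or B303), led by the protease MMP7 (log2 change -3.67). Stromal matrix genes and their modifiers fell in 13 of 33 features (8 without B303) and rose in 1, the matrix proteins POSTN and DCN (log2 change -2.82 and -2.20) among them. The summed stellate and fibroblast markers, given above, were lower at C5 in the same libraries, and their part in these changes was not tested. Collagens rose in 4 and fell in 4 of 20 features (2 and 2 without B303), with COL5A1 rising (log2 change 1.46) and COL18A1 falling (-1.78). Smooth muscle and actin genes rose in 4 (2 without B326, 1 without B330 or B303) and fell in 3 of 23 features. These shares (17.4% and 13.0%) were near those over all features. The actin-severing gelsolin GSN (log2 change -1.49) was among the falling ones. Genes of the epithelial-mesenchymal transition rose in 2 (1 without B330 or B303) and fell in 3 of 15 features. N-cadherin CDH2 rose from 184 to 393 CPM (SD 6.99 and 35.3), and E-cadherin CDH1 fell from 23.5, 14 and 20.2 CPM to 4.74, 5.82 and 8 CPM, a call lost without B326. Tubulins rose in 5 of 14 features (2 without B326, 1 without B330 and 3 without B303), led by TUBA1A (log2 change 2.36, SE 0.37). TUBA1B fell by 1.55 on the log2 scale, a call lost without B330 or B303 and with DESeq2.

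Some of the deacetylase genes themselves were called, beside 28.8% of all features. All 4 class I deacetylase genes were tested with 1 feature each, and HDAC2 and HDAC3 rose. HDAC2 measured 354, 357 and 377 CPM at C1 and 740, 726 and 619 CPM at C5 (1.92-fold, log2 change 0.94, SE 0.13, edgeR adjusted p = 8.64e-06). HDAC3 went from 59.8, 60.3 and 61.5 CPM to 162, 200 and 83.2 CPM (2.45-fold, edgeR adjusted p = 0.000161), with B303 the lowest at C5 and still above C1. The log2 difference of HDAC1 was 0.00 (SE 0.30) and that of HDAC8 0.18 (SE 0.33), and neither passed the test. In the other classes 2 of 11 features rose and 2 fell (5 without B326). HDAC9 rose in both of its features (log2 change 2.00 and 2.68). HDAC6, the cytoplasmic tubulin deacetylase, fell in 2 of its 4 features, in the one with the most reads from 835, 769 and 695 CPM to 412, 293 and 334 CPM (2.21-fold, edgeR adjusted p = 1.41e-05). The levels of HDAC4 (1.73 to 3.4 CPM), HDAC5 (11.8 to 17.9 CPM), HDAC7 (4.4 to 1.5 CPM), HDAC10 (12.2 to 5.71 CPM) and HDAC11 (15.7 to 11.5 CPM) did not pass the test.

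Corepressor subunits were called in 4 rising and 1 falling features of 33, beside 28.8% of all features called. The NCoR subunit GPS2 rose from 128 to 287 CPM (SD 13.3 and 58.6) and the NuRD helicase CHD3 fell from 62.7 to 22.3 CPM (SD 17.2 and 10.7). Among 16 features of acetyltransferases 3 fell, led by the coactivator NCOA2 (log2 change -1.46, SE 0.22), and NCOA3 rose (0.82), a call lost when any batch was left out. Of 23 features of acetyl-lysine readers and elongation factors 2 fell (0 without B330), and MLLT3, a subunit of the super elongation complex, was the single rising one (105, 94 and 118 CPM to 275, 252 and 236 CPM, 2.4-fold). Polycomb genes rose in 4 and fell in 3 of 30 features (2 rising without B303, 1 falling without B330 or B303). The ubiquitin ligase RING1 rose most among them (398, 381 and 401 CPM to 1064, 1037 and 1106 CPM, edgeR adjusted p = 7.63e-09). The linker histone gene H1F0, often raised by deacetylase inhibitors, was 12.3, 15.1 and 9.73 CPM at C1 and 21.2, 27.5 and 19.8 CPM at C5. Its groups did not overlap, but it did not pass the test (log2 change 0.88, SE 0.36, edgeR adjusted p = 0.0682). Among histone genes outside S phase HIST1H2BJ and H2AFX fell (log2 change -2.25 and -0.98).

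Stress pathways showed no common direction, set beside 13.8% of all features rising and 15% falling. Targets of NRF2, the oxidant-responsive factor, fell in 9 and rose in 3 of 33 features. Sulfiredoxin SRXN1 rose 4.16-fold (123 to 510 CPM) and peroxiredoxin PRDX1 from 123 to 376 CPM, while the glutathione peroxidase GPX2 fell from 35.3 to 5.04 CPM. Of 30 features of endoplasmic reticulum and integrated stress 7 fell, and 1 rose, that of CHAC1, a call lost without B330 or B303. The stress regulator NUPR1 fell from 19.7, 22 and 18.9 CPM to 2, 0 and 3.06 CPM (11.9-fold, edgeR adjusted p = 0.000188). The chaperone genes of the heat shock response rose in 4 of 28 features (2 without B326 or B330) and fell in 1 (0 without B303), while 13.8% of all features rose.

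At the concentrations in between, the levels of most called features lay on the C5 side of C1. These are descriptions with no test, because the features were called from C1 and C5. At C2 (0.125167 µM) 85.9% of the rising features were above C1 and 84.4% of the falling features below it, and at C3 (0.3755 µM) the shares were 99.2% and 98.4%. The median share of the C5 change, on the log2(CPM + 1) scale, was 22% at C2, 67.4% at C3 and 81.2% at C4 in rising and 17.6%, 64.4% and 74.8% in falling features. The step from C2 to C3 was thus the widest on this scale, but the concentrations were unevenly spaced. It ran from 0.125167 to 0.3755 µM, while the next steps ran only to 0.5 and then to 0.86 µM. The change per equal increase in concentration was not tested. Plasma proteins had median differences from C1 of -0.396, -1.68, -1.72 and -2.2 at C2 to C5, cell cycle genes -0.167, -0.9, -1.32 and -1.65, and metallothioneins 0.521, 2.12, 2.4 and 3.21. AFM was already at 36.9 CPM at C2 and 2.71 CPM at C3, and CYP7A1 at 27.5 and 2.89 CPM. HNF4A was at 10.8 CPM at C2 and 3.77 CPM at C3. HBG1 did not rise at each step, with 11.5, 53.8, 52.2 and 26.3 CPM from C2 to C5, so that its mean at C5 lay under those of C3 and C4. Some list medians also lay nearer to 0 at C5 than at C4. The median difference at C3, C4 and C5 was -0.808, -0.69 and -0.287 for the acute phase list, 1.08, 1.43 and 1.07 for neuronal genes, 0.58, 0.686 and 0.558 for peptide hormones and 0.175, 0.307 and 0.258 for TGF-β signals.

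**Figure D4:**
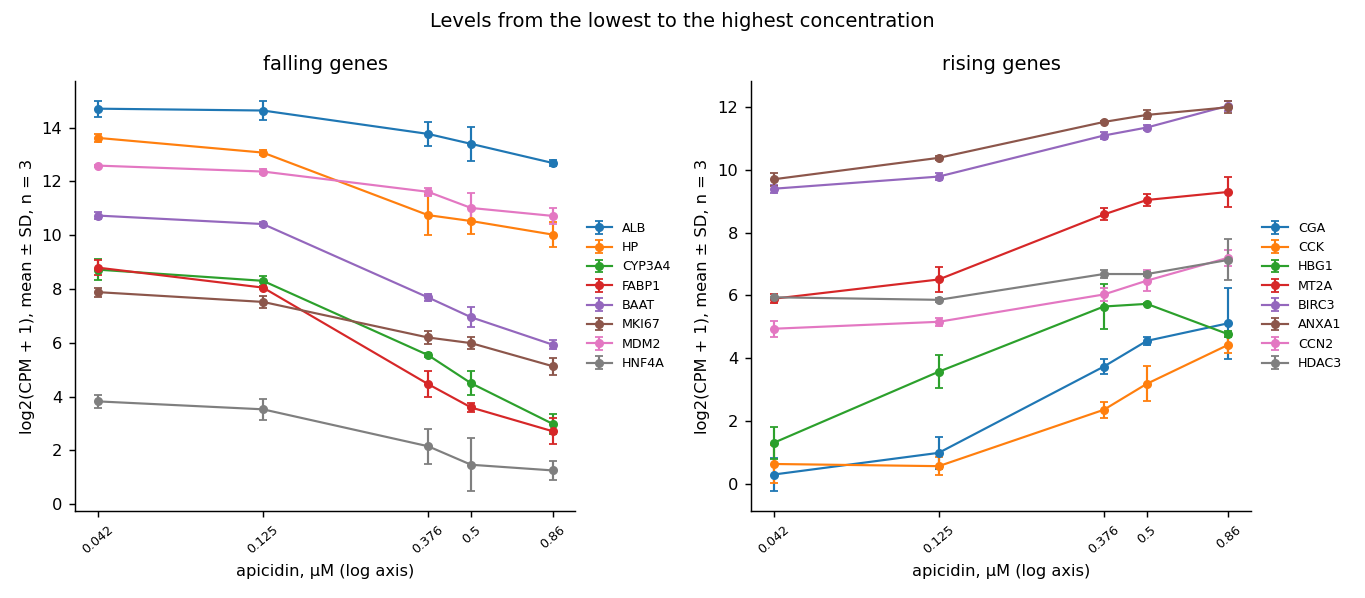
Mean of log2(CPM + 1) with its SD (n = 3) at the 5 apicidin concentrations, in µM on a log axis, for 8 falling genes (left) and 8 rising genes (right). For each gene shown except HBG1 the largest step between neighbouring concentrations lies between 0.125167 and 0.3755 µM, though the concentrations are unevenly spaced. HBG1 is higher at 0.3755 and 0.5 µM than at the highest concentration.

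Several features of 1 gene can differ, since they bind different exons or transcripts. Of 1071 symbols with several features tested, 158 had all of them called one way and 276 had some called and the others not. Among the genes named above, F3, ONECUT1, CYP1A1, CYP2C19, CYP2U1, BCL2L11, BMF, TGFBR3, DCN, HIST1H2BJ and HDAC6 also had features of the same sign that did not pass the test. In 3 symbols, DLC1, DMKN and SRRT, features were called in opposite directions, and these were named after their values were seen. DLC1, a GTPase-activating protein, rose in 1 feature from 33, 31.6 and 24.6 CPM to 145, 144 and 196 CPM (log2 change 2.44, SE 0.26, edgeR adjusted p = 5.09e-07). In the other it fell from 21.5, 9.56 and 10.8 CPM to 3.24, 2.79 and 2.82 CPM (log2 change -2.23, SE 0.42, edgeR adjusted p = 0.000396). The groups did not overlap in either feature. In DMKN and SRRT the opposing calls were lost without B303. The sequences targeted by the oligos were not analysed here, so the transcripts behind the opposing features are not named.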

How the data were processed

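TempO-Seq measured targeted transcripts in lysates of HepaRG cells. The deposited table holds raw counts per probe; per the labels the authors' processing notes name bcl2fastq 2.20.422, fastp 0.23.2, STAR 2.7.10b and DESeq2 1.38.0, without their roles, and the tool that made the counts is not given in the sources used here. Of 22069 rows, 1 was left out because it had values for 30 libraries, and 22068 probes of 19470 symbols were used. The 15 apicidin libraries were fitted with edgeR 4.0.16 in R 4.3.3 (filterByExpr, TMM, quasi-likelihood F test, no batch term), and C5 was compared with C1. SEs were taken from the F statistic. Calls needed an adjusted p (Benjamini-Hochberg) under 0.05 and a fold of at least 1.5. Where a group had at most 3 counts in each library, the fold was bounded with 3 counts per library.

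Named by rule were the 10 rising and 10 falling features with the largest change among calls of the same sign in 3 of 3 batches reaching a mean of 10 CPM, up to 4 called features per list (where none was called, up to 2 with the highest mean), HDAC1 to HDAC11, CDKN1A, H1F0, CGA, AFM and the marker genes. Members and the 60 gene lists were chosen with earlier results of these data known. The labels tie replicate numbers to batches. Deviations from the group means correlated at 0.0386, 0.0234 and 0.0238 between C1 and C5 libraries of the same batch (mean 0.0357 over 30 pairs of the same number and -0.0179 over 60 pairs of different numbers). Alternatives were DESeq2 1.42.0, its size factors, no filter, the 6 libraries alone, the batch as a block, each batch left out, other fold limits and summed probes. The fit was tested on simulated data. Each group held 1 well per batch, so p-values measure the spread between these wells and batches. Promoters came from RefSeq. Some genes that the rule names and 1 of the lists are not reported here.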

Additional observations from a re-analysis of the deposited data

How the results depend on the processing

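With 3 wells per group and 3699849 to 5250260 counts per apicidin library, features of a few CPM rest on few counts. Of 309 named features tested, 280 were called, and these were followed under DESeq2's size factors, the DESeq2 Wald test, no filter, the 6 libraries alone, the replicate block and each batch left out, but not under other fold limits or with summed probes. Of them 210 were tested and called under each of these settings, and none changed sign where tested. Without B326, B330 and B303 in turn, 22, 48 and 50 of them lost their call, and with the replicate block 5. Over all 3662 calls, 2952, 2428 and 2217 were kept without these batches in turn, a larger share lost than among the named features. Named features were mostly picked for large changes in the same libraries, so this difference is no separate support for them. The total of 3662 calls (1754 rising and 1908 falling) became 3663 with DESeq2's size factors, 3888 with the DESeq2 Wald test, 3767 with no filter on low counts, 4051 in a fit of the 6 libraries alone, 3991 with no minimum fold change, 2495 (1065 rising and 1430 falling) at a fold change of at least 2 and 3446 with the probes of a symbol summed. With the replicate block, which is the batch, there were 3722 calls (1773 rising and 1949 falling), of which 3573 were shared with the fit without it. Leaving out 1 batch gave 2281 to 3230 calls, 1035 to 1525 rising and 1246 to 1705 falling, with the lowest counts without B303. The cause was not tested, although each such fit holds fewer libraries.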

Other observations

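Genes of the interferon response and of antigen presentation did not move as one. Over all features 13.8% rose and 15% fell. Of 30 features of interferon-stimulated genes 8 fell (5 without B330) and 4 rose (median log2 change -0.74). The transcription factor IRF1 rose from 71.9, 69.1 and 71.4 CPM to 192, 258 and 201 CPM (3.06-fold, edgeR adjusted p = 2.57e-05), and IFI6 (60.3 to 118 CPM) and IFIT1 (104 to 181 CPM) rose as well. The RNA-sensing synthetase OAS3 fell by 1.76 on the log2 scale and the guanylate-binding protein GBP2 from 58.8, 79.8 and 46.6 CPM to 21.9, 26.1 and 13.2 CPM. In antigen presentation 6 of 24 features fell (4 without B330 or B303) and 2 rose (0 without B303). The peptide-trimming ERAP2 fell from 242, 158 and 209 CPM to 64.3, 64.9 and 57.6 CPM, the chaperone calreticulin CALR from 1603 to 901 CPM and the peptide-loading factor TAPBP from 210 to 128 CPM. IFI6, IFIT1, GBP2, CALR and TAPBP were named after their values were seen.

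Further lists are set beside 13.8% of all features rising and 15% falling. In the IGF axis 5 of 20 features rose (3 without B330 or B303) and 4 fell (2 without any 1 batch). The insulin-regulated binding protein IGFBP1 fell by 3.10 on the log2 scale, and the lysosomal sorting receptor IGF2R, named after its values were seen, rose from 728 to 1162 CPM (SD 56.9 and 42.7). Proteasome subunits rose in 7 of 36 features (2 without B330, 4 without B303) and fell in 0, with a median log2 change of 0.30. PSMA2, a subunit of the core particle, rose from 11.3, 11.3 and 9.48 CPM to 33.4, 35.4 and 22.3 CPM. Lysosomal genes rose in 8 and fell in 8 of 52 features (5 rising without B326 or B303, 3 without B330, and 5 falling without B303), with the arylsulfatase ARSB falling by 1.84 on the log2 scale. Respiratory complex I rose in 4 and fell in 3 of 41 features (1 rising without B330 or B303, 2 falling without B303). Of 43 germline and cancer-testis genes 11 were tested, and MAGED4 was the single call, falling by 0.70 on the log2 scale, which was lost without B330. In the Wnt list 2 features rose and 4 fell of 20, with the Dishevelled-binding DACT3 rising from 3.58, 2.45 and 1.28 CPM to 23.4, 10.2 and 16.2 CPM and the Wnt antagonist DKK1 falling from 106, 98.7 and 126 CPM to 51.6, 46.1 and 39.98 CPM.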
